A study of Mus musculus with 8 samples.

Results

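The common gamma chain cytokine receptors are surface receptors that share the subunit encoded by Il2rg. The genes described are Il2rg itself, the interleukin 7 receptor alpha chain gene Il7r, the interleukin 2 receptor chain genes Il2ra and Il2rb, the interleukin 15 receptor alpha chain gene Il15ra, the interleukin 4 receptor alpha chain gene Il4ra and the interleukin 21 receptor gene Il21r. They were taken by gene name from the non-control rows of the scanner files, which hold 13 probes for these 7 genes among 41174 probes, and each gene is represented by its brightest probe over the 7 conditions. All 7 were among the 19815 genes tested, and their brightest probes were well above background and below saturation on 8 of 8 arrays. In each receptor the common gamma chain acts together with a private chain that binds the cytokine. Signals pass through JAK1 and JAK3 to STAT proteins. Naive CD8+ T cells are known to live on interleukin 7, which they sense through Il7r, and to lose this chain and gain the high-affinity interleukin 2 receptor chain Il2ra once their antigen receptor has been engaged. The beta chain Il2rb serves both the interleukin 2 and the interleukin 15 receptor.

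The cells were CD8+ T cells purified from spleens of OT-I TCR tg mice on the C57BL6 background. All of them carry a transgenic T cell receptor (TCR) specific for SIINFEKL, an ovalbumin peptide shown by H-2Kb, and the study gave interferon and antigen receptor signals alone and in sequence. Cells received interferon beta (IFNb) alone for 2 h or 7 h, TCR stimulation with SIINFEKL streptamers alone for 1 h or 6 h, or IFNb for 1 h followed by TCR stimulation for 1 h or 6 h, and the untreated cells carried the same transgene. There was 1 single-colour array for each of the 6 treated conditions and there were 2 arrays of untreated cells, and the labels do not say whether the IFNb was left in during TCR stimulation or whether arrays came from separate mice. P-values therefore measure no spread between mice or between replicates. Those of the main fit rest on how far these arrays departed from additive effects of IFNb and TCR. The difference between IFNb for 2 h and for 7 h enters them too. Technical noise and true differences of these kinds cannot be told apart there. Purity ranged from 90 to 97% by flow cytometry, per the labels' protocol. No treated condition has a replicate array, so the tests compare arrays that share a treatment: 4 arrays with IFNb against 3 samples without, 2 arrays at each TCR time against 3 samples without TCR, with the untreated arrays averaged to 1 sample. The arrays lay on 2 slides, with TCR for 1 h on slide 1, TCR for 6 h on slide 2, and IFNb alone and untreated cells on both. The arrays for TCR 1 h and for IFNb 1 h with TCR 1 h carry opposite names in the scanner files and in the deposited series values. They are named here as in the series values, and IFNb differences within that pair depend on the naming. So do TCR 1 h folds given separately with and without IFNb, and every statement about TCR 1 h alone. Calls of the fits depend on it too. With the scanner files' names the receptor genes called for TCR 1 h went from 2 to 0, and Il21r lost its call for TCR 6 h.

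All values below are scaled signal, the processed intensity of a probe scaled so that the 75th percentile of every array is 1500. The 75th percentile before scaling lay between 807 and 1241 units, and between 26065 and 29533 of 43379 non-control spots per array were well above background. Probes differ in brightness for the same amount of RNA, so levels are compared between arrays for 1 gene and not between genes. The untreated arrays set the only replicate spread. Over the 12814 genes at least as bright as the dimmest receptor gene, 95% differed by less than 0.18 in log2, or 1.13-fold. That spread is pooled over genes and may be technical. A wider step between single arrays is therefore not shown to exceed the spread of treated arrays. In whole-population RNA, fewer cells of a type and less RNA per cell cannot be told apart. Of the markers of the labelled cell type, the 6 CD8 T cell genes Cd3e, Cd3d, Cd8a, Cd8b1, Cd2 and Lck were well above background on 8 of 8 arrays. So were 5 of the 6 listed genes of CD4 and regulatory T cells, whose signal on the 8 arrays was 91.9 to 149.8 for Cd4, 59.5 to 118.6 for Foxp3, 1081 to 7819 for Ikzf2 and 801 to 3291 for Ctla4.

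TCR stimulation for 6 h moved the alpha chain genes of the interleukin 7, 2 and 15 receptors furthest. Il7r fell 165-fold, and Il2ra rose 73.5-fold, Il15ra 24.7-fold and Il21r 3.57-fold. Il2rg, Il2rb and Il4ra did not pass the test. At 1 h Il2ra and Il21r had risen, 4.79-fold and 6.95-fold, and none of the 7 genes passed for IFNb. Under other settings or with an array left out, the 1 h call held in 13 of 19 fits for Il2ra. For Il21r it held in 12 of 19 fits at 1 h and in 15 of 20 at 6 h.

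The promoters of the genes that moved most are shown because the comparison turns on them, each from 250 bases before to 50 bases after the start of transcription, as RefSeq gives them for build GRCm38.p6. The Il7r window lies on the minus strand at chr15:9529827-9530126, and the capitals mark a match to the STAT motif TTCNNNGAA.
Il7r: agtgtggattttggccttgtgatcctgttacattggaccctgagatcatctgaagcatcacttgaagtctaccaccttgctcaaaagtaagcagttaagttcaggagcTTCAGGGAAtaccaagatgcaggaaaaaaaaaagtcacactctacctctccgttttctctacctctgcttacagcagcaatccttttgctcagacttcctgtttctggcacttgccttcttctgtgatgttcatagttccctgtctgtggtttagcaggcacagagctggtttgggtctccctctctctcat
The Il2ra window lies on the plus strand at chr2:11642542-11642841, and the capitals mark 3 overlapping matches to the NF-kB consensus.
Il2ra: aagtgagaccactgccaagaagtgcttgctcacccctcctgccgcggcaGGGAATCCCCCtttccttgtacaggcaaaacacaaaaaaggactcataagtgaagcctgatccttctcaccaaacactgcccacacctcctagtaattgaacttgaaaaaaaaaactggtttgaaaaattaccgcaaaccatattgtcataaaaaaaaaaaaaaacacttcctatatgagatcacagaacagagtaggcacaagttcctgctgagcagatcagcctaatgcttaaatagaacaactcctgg
The Il15ra window on the plus strand at chr2:11705462-11705761 is the second of the 2 that RefSeq lists for this gene, and the capitals mark a match to the AP-1 motif TGANTCA.
Il15ra: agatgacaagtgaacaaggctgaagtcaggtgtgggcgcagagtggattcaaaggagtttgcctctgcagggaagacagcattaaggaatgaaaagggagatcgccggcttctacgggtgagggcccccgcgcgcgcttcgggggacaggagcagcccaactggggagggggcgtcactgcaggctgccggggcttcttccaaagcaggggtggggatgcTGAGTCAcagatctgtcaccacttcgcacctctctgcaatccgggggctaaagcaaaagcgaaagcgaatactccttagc

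On the arrays Il2rg is read by a probe that matches chrX:98461022-98461535 of build mm9, Il15ra by one at chr2:11645753-11652254 and the body of Il7r by one at chr15:9440943-9441002. These 3 probes are shown for their span or their result at 1 h. The first spans 514 genomic bases and the second 6502, both more than the probes' 60 bases. The third is the Il7r probe that passed the test at 1 h, where the brightest one did not.
Il2rg probe: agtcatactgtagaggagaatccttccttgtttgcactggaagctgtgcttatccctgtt
Il15ra probe: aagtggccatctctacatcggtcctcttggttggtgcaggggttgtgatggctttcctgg
Il7r probe: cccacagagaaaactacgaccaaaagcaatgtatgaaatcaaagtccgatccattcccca

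The shared chain Il2rg varied least of the 7 genes, over a 2.21-fold range of conditions. With IFNb its scaled signal was 37712 after 2 h and 65556 after 7 h without TCR, 47119 with TCR for 1 h and 47684 with TCR for 6 h. Without IFNb it was 34229 and 29330 in untreated cells, 70089 after TCR for 1 h and 39434 after TCR for 6 h. The arrays for TCR 1 h and IFNb 7 h were the highest and within the untreated spread of each other, and the untreated arrays were the lowest. For this gene the second untreated array differed from the first by -0.22 on the log2 scale, beyond that spread. IFNb for 2 h stood 0.14 above the untreated array of its slide. The fitted changes were 0.45 ± 0.38 on the log2 scale for TCR 1 h (SE, 2 arrays against 3 samples, adjusted p = 0.540 in limma) and 0.05 ± 0.38 for TCR 6 h (adjusted p = 0.930), and neither passed.

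Il7r, the interleukin 7 receptor alpha chain, fell with TCR time whether or not IFNb was given. The arrays with IFNb gave 101231 after 2 h and 121414 after 7 h without TCR, 61154 with TCR for 1 h and 759.7 with TCR for 6 h. The arrays without IFNb gave 104803 and 106581 in untreated cells, 38438 after TCR for 1 h and 526.4 after TCR for 6 h. Both TCR 6 h arrays lay below every other array by a wide margin, both TCR 1 h arrays lay below all 4 arrays without TCR, and the groups did not overlap. The log2 change at 6 h was -7.37 ± 0.26 (SE, 2 arrays against 3 samples, adjusted p = 0.000261 in limma), and leaving out each array in turn gave -7.48 to -7.28. On slide 2 alone the pair without IFNb differed 202-fold and the pair with IFNb 160-fold. At 1 h the fitted change was -1.11 ± 0.26 (adjusted p = 0.069 in limma), lower in both pairs of arrays but not past the threshold. It passed with the untreated arrays as 2 samples (adjusted p = 0.0187 in limma), with normexp (0.0203), with probes well above background on all arrays (0.0331) and with the mean of all kept probes (-1.42, 0.0293), and over all alternatives the adjusted p lay between 0.0187 and 0.244. Between the TCR times the change was -6.26 ± 0.28 (adjusted p = 0.00132), and with slide as a block it was -6.40 ± 0.38 (adjusted p = 0.00968).

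Il2ra, the alpha chain that turns the interleukin 2 receptor into its high-affinity form, rose with TCR time. Scaled signal with IFNb was 385.6 after 2 h and 688.5 after 7 h without TCR, 2565 with TCR for 1 h and 25610 with TCR for 6 h. Scaled signal without IFNb was 181.5 and 179.7 in untreated cells, 910.1 after TCR for 1 h and 21432 after TCR for 6 h. The TCR 6 h arrays were the highest, the TCR 1 h arrays came next, and every step between the 7 conditions was wider than the untreated spread. The narrowest step was 0.26 on the log2 scale, between the single arrays at TCR 6 h. The change at 6 h was 6.20 ± 0.41 on the log2 scale (SE, 2 arrays against 3 samples, adjusted p = 0.000369 in limma), 5.64 without the TCR 6 h array and 6.89 without the array for IFNb 1 h with TCR 6 h. At 1 h it was 2.26 ± 0.41 (adjusted p = 0.0394 in limma).

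The call of Il2ra at 1 h was lost when any of several arrays was left out. It did not hold without the array for TCR 1 h (2.50, adjusted p = 0.158 in limma), IFNb 1 h with TCR 1 h (1.97, adjusted p = 0.229), IFNb 2 h (2.12, adjusted p = 0.123) or IFNb 7 h (2.53, adjusted p = 0.0653), with no filter on dim probes (adjusted p = 0.0557) and with the scanner files' names for the TCR 1 h pair (2.11, adjusted p = 0.169). The IFNb estimate was 1.13 ± 0.34 (4 arrays against 3 samples, adjusted p = 0.443 in limma), higher with IFNb in 4 of 4 pairs of arrays, and did not pass. It was 0.23 with the scanner files' names for the TCR 1 h pair.

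**Figure D1:**
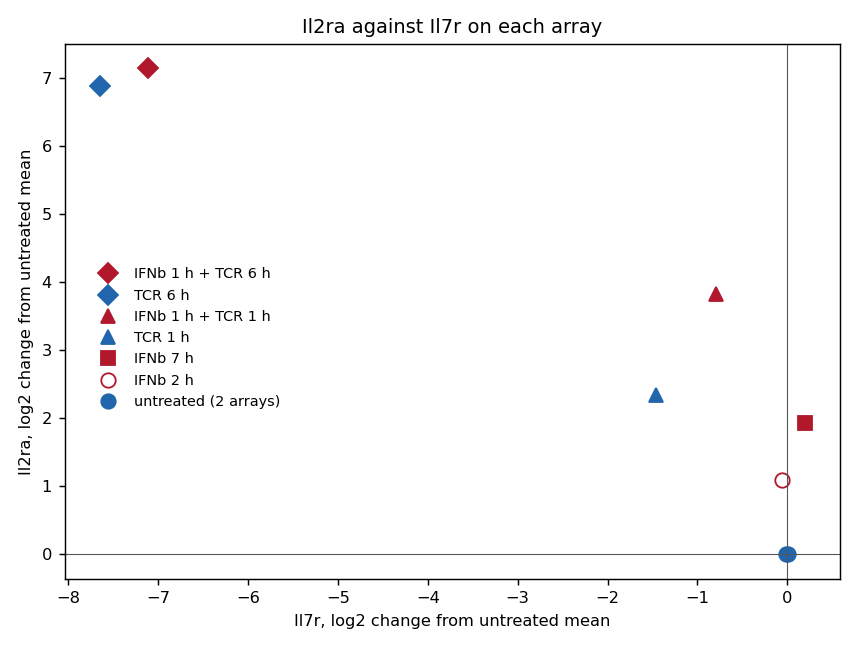
Log2 change of Il2ra (vertical axis) against log2 change of Il7r (horizontal axis) from the untreated mean, 1 point per array, red with IFNb and blue without. Both TCR 6 h arrays stand alone at the upper left, near 7 on the vertical axis, while the arrays for IFNb alone lie above the untreated arrays with Il7r near 0.

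The distance between the changes of both genes gives the size of the switch on each array. Relative to the untreated mean, the Il2ra change minus the Il7r change was 1.16 on the log2 scale after IFNb for 2 h and 1.73 after IFNb for 7 h, 4.62 after IFNb 1 h with TCR 1 h against 3.79 after TCR 1 h, and 14.27 after IFNb 1 h with TCR 6 h against 14.54 after TCR 6 h. After IFNb alone this distance came from Il2ra, since Il7r moved by -0.06 at 2 h and 0.20 at 7 h. At 6 h the arrays with and without IFNb differed by 0.26 for Il2ra and 0.53 for Il7r. The plot of Il2ra against Il7r shows these steps.

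**Figure D2:**
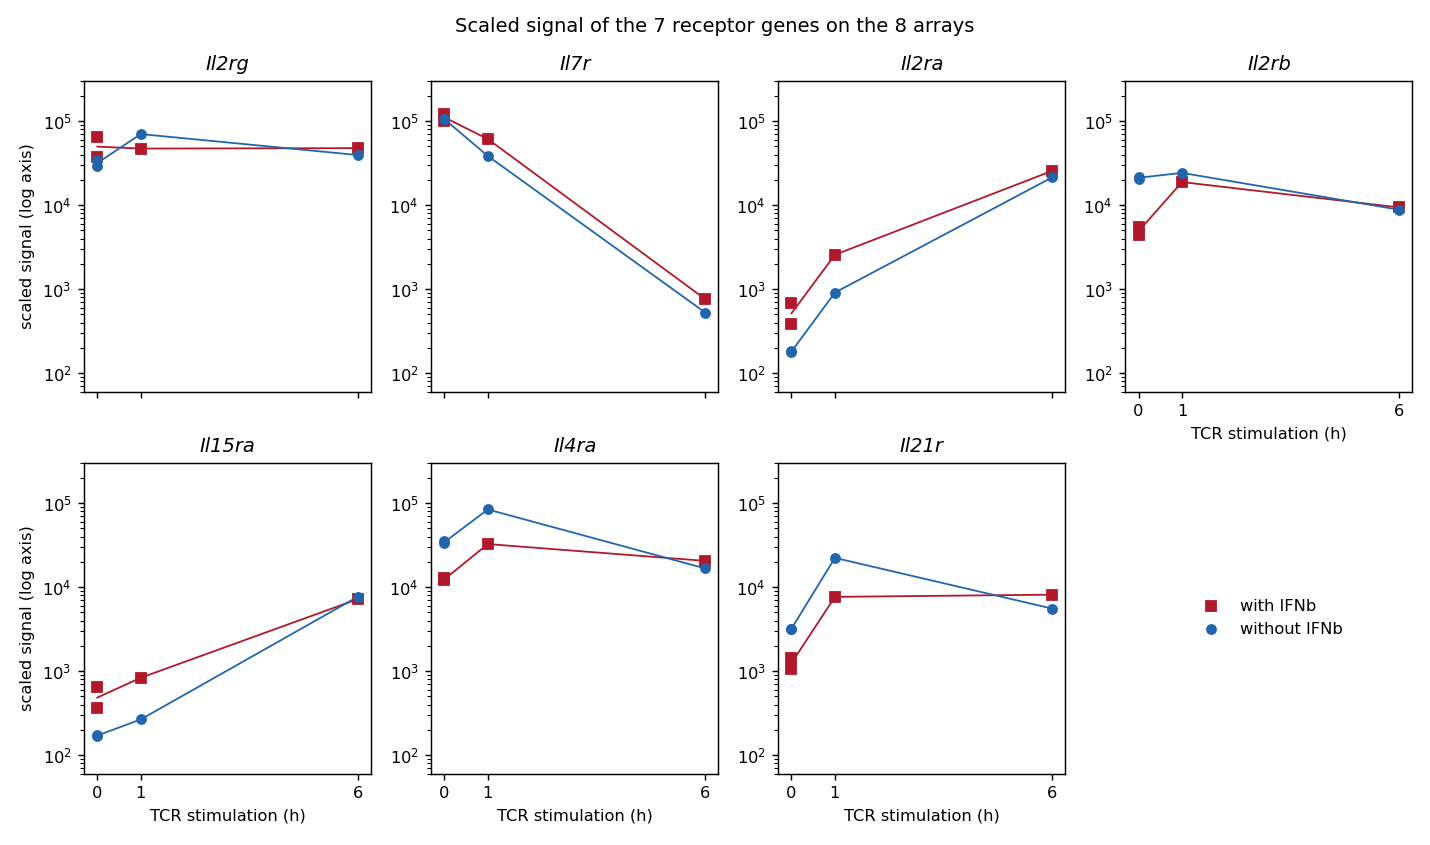
Scaled signal of each receptor gene on a log axis against hours of TCR stimulation, with IFNb as red squares (at 0 h, IFNb alone for 2 h and 7 h) and without IFNb as blue circles (at 0 h, the 2 untreated arrays). Lines join the geometric mean at 0 h to the arrays at 1 h and 6 h. Il7r falls and Il2ra and Il15ra rise at 6 h, while Il2rb, Il4ra and Il21r start lower on the IFNb arrays at 0 h.

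Il15ra, the alpha chain that binds interleukin 15 and presents it to neighbouring cells, rose late. On IFNb arrays it read 360.8 after 2 h and 649.9 after 7 h without TCR, 833.9 with TCR for 1 h and 7219 with TCR for 6 h. On arrays without IFNb it read 167.4 and 174.4 in untreated cells, 266.3 after TCR for 1 h and 7728 after TCR for 6 h. The TCR 6 h arrays were the highest and within the untreated spread of each other, whereas the TCR 1 h array without IFNb lay below both arrays of IFNb alone, so the groups overlapped at 1 h. The change at 6 h was 4.63 ± 0.48 (SE, 2 arrays against 3 samples, adjusted p = 0.000789 in limma), 3.88 without the TCR 6 h array and 5.54 without the array for IFNb 1 h with TCR 6 h. At 1 h it was 0.64 ± 0.48 (adjusted p = 0.479). The IFNb estimate was 1.07 ± 0.40 (adjusted p = 0.535), with 3 of 4 pairs higher: 2.15-fold at 2 h, 3.73-fold at 7 h, 3.13-fold with TCR for 1 h and 0.934-fold with TCR for 6 h. It was 0.08 with the scanner files' names for the TCR 1 h pair. On a second probe of the gene, 1.17 ± 0.41 was found for IFNb and 4.98 ± 0.49 for TCR 6 h.

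Il2rb, the signalling beta chain of the interleukin 2 and 15 receptors, was low on both arrays of IFNb alone. In cells given IFNb the signal was 4385 after 2 h and 5449 after 7 h without TCR, 18825 with TCR for 1 h and 9387 with TCR for 6 h. In cells without IFNb the signal was 20696 and 21645 in untreated cells, 24203 after TCR for 1 h and 8805 after TCR for 6 h. IFNb alone stood 4.72-fold below the untreated array of its slide at 2 h and 3.97-fold below at 7 h, and the TCR 6 h arrays with and without IFNb were within the untreated spread of each other. TCR for 6 h differed from no TCR in opposite directions in the slide 2 pairs, by 0.78 on the log2 scale with IFNb and -1.30 without. The additive fit gave 0.04 ± 0.52 for TCR 6 h (adjusted p = 0.961 in limma) and 1.27 ± 0.52 for TCR 1 h (adjusted p = 0.211).

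Il4ra, the alpha chain of the interleukin 4 receptor, had its highest value after TCR for 1 h alone, by the names used here. IFNb arrays had 12773 after 2 h and 12026 after 7 h without TCR, 32548 with TCR for 1 h and 20531 with TCR for 6 h. Arrays without IFNb had 35158 and 33440 in untreated cells, 84026 after TCR for 1 h and 16677 after TCR for 6 h. The arrays of IFNb alone were the lowest and within the untreated spread of each other, 2.75-fold below untreated at 2 h and 2.78-fold at 7 h. At 1 h the fitted change was 1.44 ± 0.43 (SE, 2 arrays against 3 samples, adjusted p = 0.116 in limma), 2.55-fold higher in the pair with IFNb and 2.39-fold in the pair without. At 6 h it was -0.06 ± 0.43 (adjusted p = 0.919). By the scanner files' names the array at 84026 would be the one with IFNb and that at 32548 the one without. The latter lies below both untreated arrays, and the fitted change at 1 h was then 1.57.

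Il21r, the private chain of the interleukin 21 receptor, was highest after TCR for 1 h alone, by the names used here. Where IFNb was given, its level was 1451 after 2 h and 1069 after 7 h without TCR, 7655 with TCR for 1 h and 8133 with TCR for 6 h. Where no IFNb was given, its level was 3200 and 3189 in untreated cells, 22295 after TCR for 1 h and 5546 after TCR for 6 h. Every TCR array lay above every array without TCR, and the arrays of IFNb alone were the lowest. The change at 1 h was 2.80 ± 0.50 (SE, 2 arrays against 3 samples, adjusted p = 0.0382 in limma) and at 6 h 1.84 ± 0.50 (adjusted p = 0.0252).

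Both calls of Il21r were lost when single arrays were left out. At 6 h this held without the array for IFNb 1 h with TCR 6 h (0.74, adjusted p = 0.235 in limma), IFNb 2 h (1.86, adjusted p = 0.0565) or IFNb 7 h (1.64, adjusted p = 0.0626), and without the TCR 6 h array the change was 2.73. On slide 2 alone the adjusted p was 0.0813, and it was 0.0609 with the scanner files' names for the TCR 1 h pair. At 1 h it held without the array for TCR 1 h (2.35, adjusted p = 0.195), IFNb 1 h with TCR 1 h (3.35, adjusted p = 0.131), IFNb 2 h (2.82, adjusted p = 0.112) or IFNb 7 h (2.60, adjusted p = 0.108). The call at 1 h was also lost with slide as a block (2.60, adjusted p = 0.0640), with no filter on dim probes (adjusted p = 0.0536) and with the scanner files' names (2.95, adjusted p = 0.0938).

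**Figure D3:**
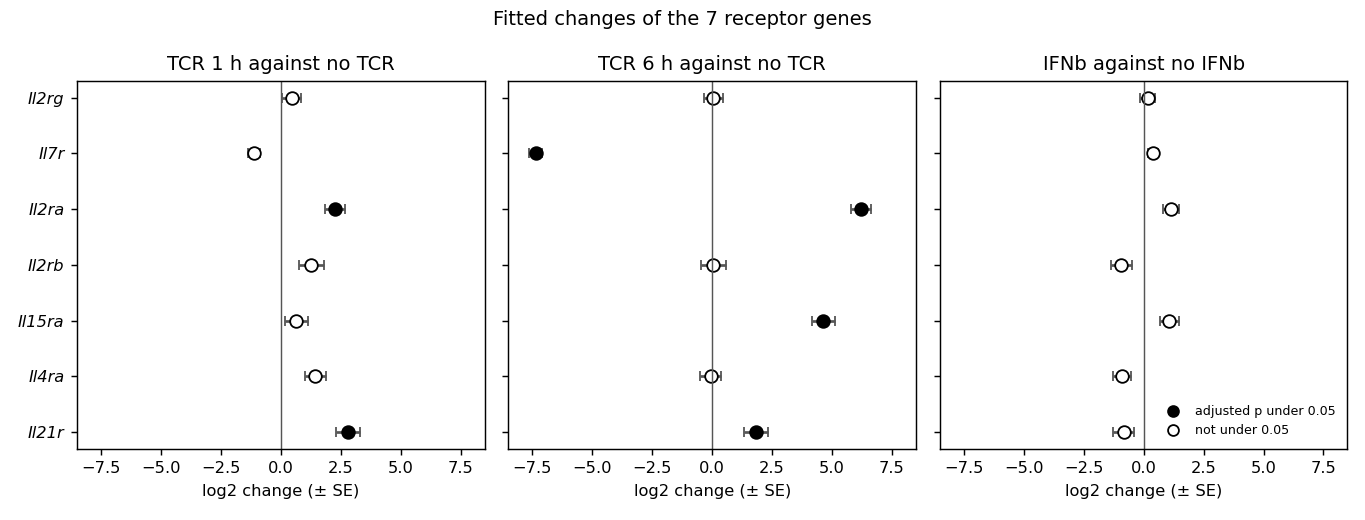
Fitted log2 change with its SE for each receptor gene (rows) for TCR 1 h, TCR 6 h and IFNb, each against the samples without it. Filled circles passed the adjusted threshold. Il7r stands at -7.37 and Il2ra at 6.20 for TCR 6 h, and no circle is filled for IFNb.

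For TCR 6 h 4 of the 7 receptor genes were called, 3 higher and 1 lower, against 45.1% of the 19814 genes tested, 22.3% higher and 22.8% lower, so a call as such was common on these arrays. For TCR 1 h 2 of 7 were called, both higher, against 4.30% of all genes in either direction and 2.57% higher. For TCR 6 h against TCR 1 h 3 of 7 were called, Il2ra and Il15ra higher and Il7r lower, against 32.1% of all genes, 16.4% higher and 15.7% lower. For IFNb 0 of 7 were called, against 0.0656% of genes, or 13 of 19815, and 1702 genes had an unadjusted p under 0.05. The median change over the 7 genes was 0.05 for TCR 6 h, 1.27 for TCR 1 h and 0.17 for IFNb, beside medians over all genes of 0.05, -0.05 and -0.01. Scaling to the array median instead shifted the median of all genes at TCR 6 h to 0.37, and the Il4ra estimate at 6 h then stood at 0.27.

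Whether the response to TCR differed with IFNb was tested as an interaction, which leaves 1 residual degree of freedom. It comes from the arrays for IFNb 2 h and IFNb 7 h, which lay on different slides. The SEs and p-values of the interaction therefore rest on the difference between those arrays and not on replicates. At 6 h the interaction was 2.21 ± 0.50 for Il2rb (SE, adjusted p = 0.520 in limma), 1.77 ± 0.46 for Il4ra (adjusted p = 0.520) and 1.91 ± 0.54 for Il21r (adjusted p = 0.533), and 0 of 7 genes passed at either time, against 0% of all genes. Unadjusted p-values under 0.05 were found for 1634 genes at 6 h and for 1501 at 1 h. In the slide 2 pairs Il4ra differed between TCR 6 h and no TCR 1.71-fold with IFNb and 0.499-fold without, and Il21r 7.61-fold with IFNb and 1.74-fold without.

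RNA markers of other cells moved across the same arrays. The summed signal of the 6 measured B cell markers was 41147 after IFNb for 2 h and 35341 after IFNb for 7 h, against 13386 and 13040 in untreated cells, and 10233 to 11409 with TCR for 1 h and 4524 to 5308 with TCR for 6 h, against 13040 to 41147 without TCR. Of these B cell markers 5 passed for TCR 6 h, where 45.1% of all genes did, and 0 for IFNb. For Ms4a1, which encodes the B cell antigen CD20, scaled signal was 14767 and 12751 on the arrays of IFNb alone, against 3061 and 3086 in untreated cells. The 7 genes of class II presenting cells summed to 52629 and 31469 after IFNb alone, against 23734 and 23280 in untreated cells. The 6 NK cell genes summed to 5542 and 16375, against 1154 and 1137, most of it Gzma and Eomes, which activated CD8+ T cells also express. Klra8 was higher too, at 295.0 and 355.6 after IFNb alone against 68.4 and 61.4. Ncr1, well above background on 2 of 8 arrays, stood at 33.1 and 52.7 against 9.4 and 12.9. Klrb1c stood at 138.4 and 195.2 against 131.4 and 135.4, and Klri2 was lower at both times. For TCR 6 h 5 of the 7 class II genes and 4 of the 6 NK cell genes passed, against 45.1% of all genes. Every class II estimate was negative, as were those of the NK cell genes except Klri2 (1.48). Among the other lists 1 of the 7 myeloid, 1 of the 6 CD4 and regulatory T cell and 0 of the 3 erythroid genes passed. The 3 measured erythroid genes summed to 4709 and 4535 after IFNb alone, against 1810 and 1775 in untreated cells. The 6 genes of CD4 and regulatory T cells summed to 5688 and 6179, against 9579 and 9406, most of the fall being Ikzf2 and Ctla4. Cd4 stood at 127.2 and 135.4 after IFNb alone against 110.3 and 114.7, and Zbtb7b at 138.8 and 151.2 against 72.4 and 68.2. Foxp3 was above both untreated arrays after 2 h and below both after 7 h, and the dim Cd40lg was lower at both times. The sum of the 7 myeloid genes was 4268 after IFNb for 2 h, above the 3246 and 3317 of untreated cells, and below both after IFNb for 7 h. No listed marker was at 0, and Pax5, a further B cell marker, was not tested for lack of signal. These shifts ran beside the low Il2rb, Il4ra and Il21r of the IFNb arrays and beside the TCR 6 h changes, and their part in them was not tested. Of the 6 CD8 markers 2 passed for TCR 6 h, against 45.1% of all genes, and Cd8a stood at 12379 and 6623 against 30588 to 55497 without TCR.

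**Figure D4:**
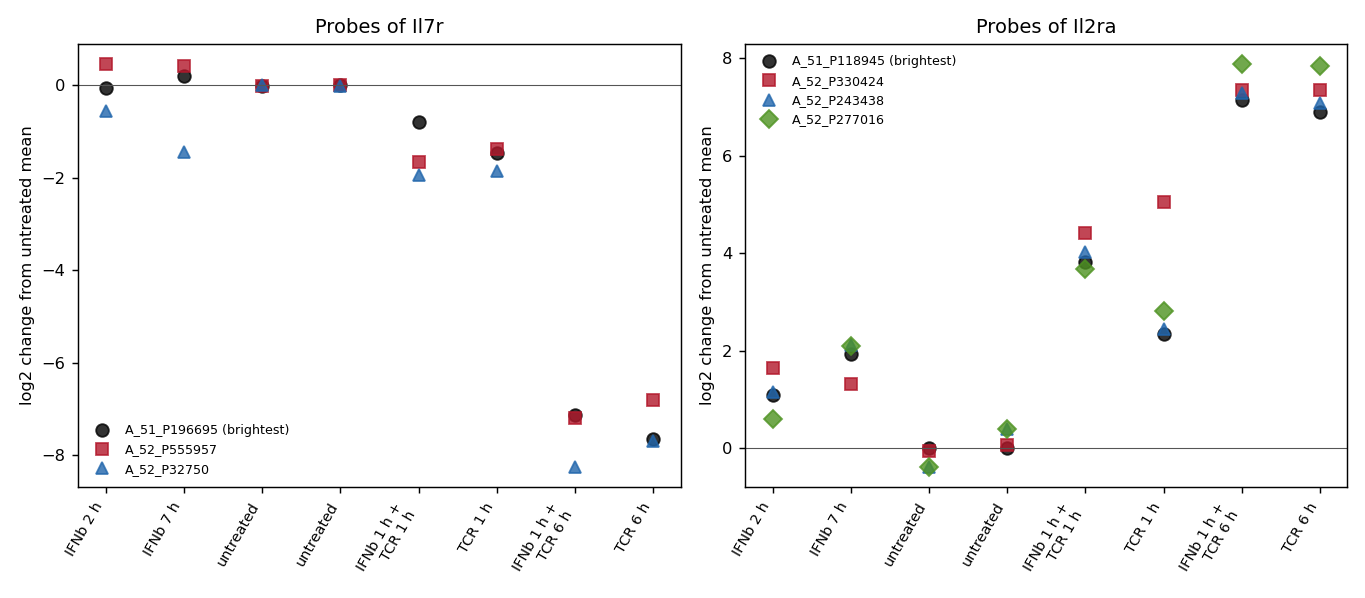
Log2 change from the untreated mean for each probe of Il7r (left) and Il2ra (right) on the 8 arrays. At TCR 6 h every Il7r probe is at its lowest and every Il2ra probe at its highest, and the Il2ra probe A_52_P330424 lies above the other 3 after TCR 1 h alone.

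Il7r and Il2ra were each read by several probes, and their changes at 1 h differed. For TCR 6 h the Il7r probes that were well above background on 8 of 8 arrays gave log2 changes of -7.37 and -7.30. The third, A_52_P32750, was well above background on 0 of the 2 TCR 6 h arrays and was at least 33.4-fold lower there (measured means 4.32 with TCR for 6 h and 681.2 without TCR). That bound takes on each dim array the higher of the probe's own signal and the lowest signal among probes well above background. The 4 Il2ra probes gave 6.20, 6.43, 6.30 and 7.10. At 1 h the Il7r probe printed above gave -1.82 ± 0.29 (adjusted p = 0.0268 in limma fitted over all 28573 kept probes), whereas the brightest probe at chr15:9435976-9436035 gave -1.11 ± 0.26 (adjusted p = 0.0678). For IFNb the Il7r probes disagreed in sign, with 0.39, -0.03 and, for the probe that was dim at 6 h, -0.60, and none passed.

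Of the 4 Il2ra probes 2, the brightest among them, carry the gene name in the scanner files and an accession that was not matched to RefSeq. The other of these, A_52_P330424, lies at chr2:11569860-11569919 in mm9, and the remaining 3 probes lie between 11612403 and 11614493. Its scaled signal was 1122 after IFNb 1 h with TCR 1 h and 1727 after TCR 1 h, against 50.3 and 54.3 in untreated cells. It was therefore 33.1-fold above untreated after TCR 1 h alone, where the other 3 were 5.04-fold, 5.46-fold and 7.02-fold above. The last 2 of these folds rest on probes that were well above background on 1 of the 2 untreated arrays. After IFNb 1 h with TCR 1 h A_52_P330424 stood at 0.649 of its level after TCR 1 h alone, while the others stood 2.82-fold, 2.99-fold and 1.82-fold higher. These ratios turn over with the scanner files' names for that pair, and the folds after TCR 1 h alone depend on the naming too. The adjusted p of A_52_P330424 for TCR 1 h was 0.0177 in limma, with a log2 change of 3.81 ± 0.49, and the other 3 also passed.

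Some other genes followed the same course over the 7 conditions. The genes most like Il7r by Pearson's r, among 1210 named genes with a range of at least 0.5 of its own, were Cpm (r = 0.998), which encodes a carboxypeptidase, Calcoco1, Arhgap45, Ctdsp2 and Cdk19 (r = 0.996 for the last). Without IFNb Cpm stood at 356.1 with TCR for 6 h against 8958 in untreated cells, and Arhgap45 at 1286 against 42523. Most like Il2ra, among 1596 genes, were Gzmb (r = 0.989), the granzyme B gene of cytotoxic granules, Cd200, Bspry, Lilrb4a and Cebpb (r = 0.978). Gzmb stood at 45695 with TCR for 6 h alone against 1797 in untreated cells. The 7 points share their arrays between genes, and both TCR 6 h arrays were the lowest for the 5 genes like Il7r and the highest for the 5 like Il2ra.

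**Figure D5:**
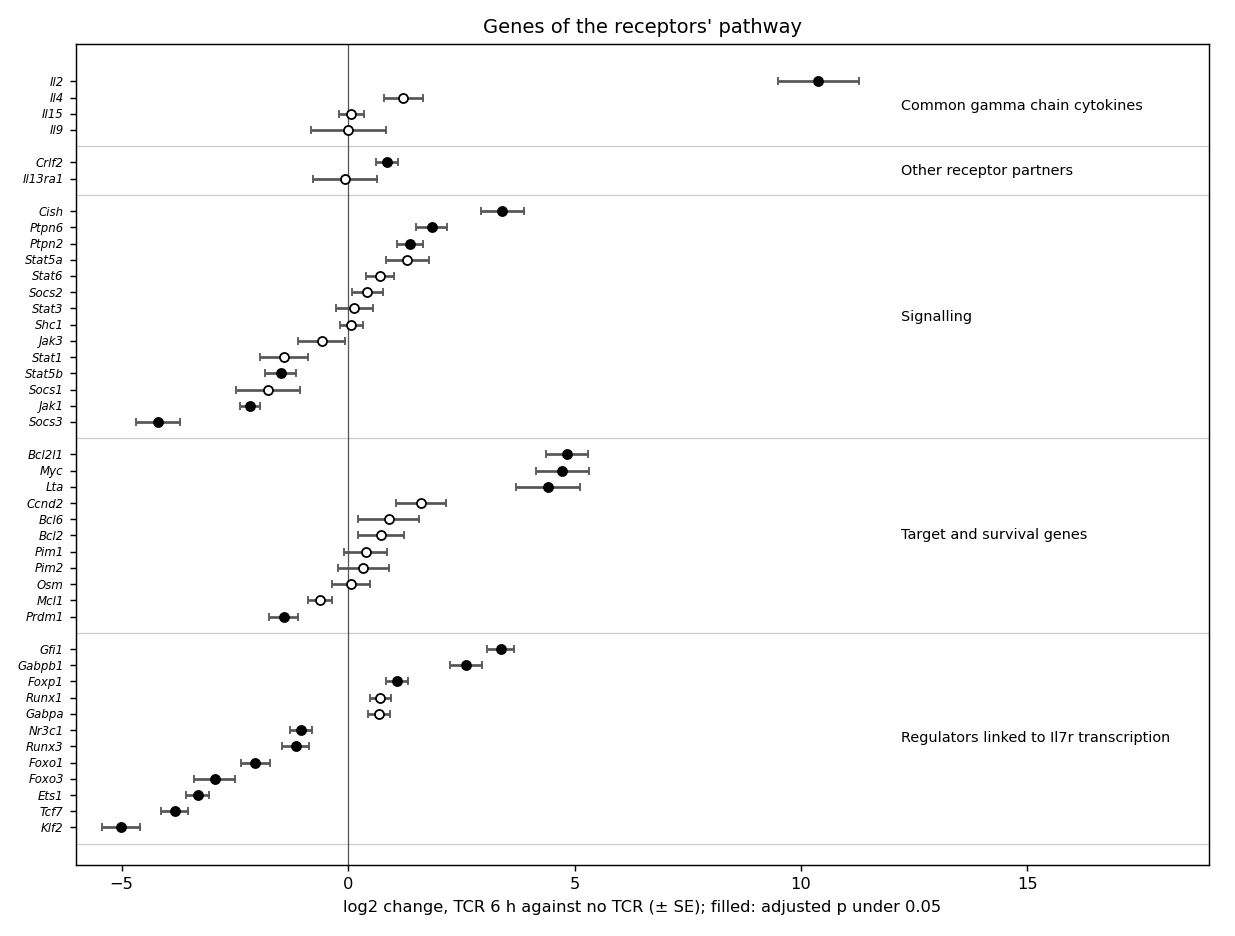
Log2 change with its SE for TCR 6 h against no TCR for the genes of the 5 pathway lists, ordered within each list. Filled circles passed the adjusted threshold. Il2 stands furthest to the right at 10.38 and Klf2 furthest to the left at -5.01, and Foxo3 was not well above background on the TCR 6 h arrays.

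Of the 6 cytokines that use the common gamma chain, Il2 was called. Its scaled signal was 25.1 after IFNb for 2 h and 54.8 after IFNb for 7 h without TCR, 1133 with TCR for 1 h and 57223 with TCR for 6 h. Without IFNb it was 45.9 and 50.1 in untreated cells, well above background on 3 of the 4 arrays without TCR in all, 19256 after TCR for 1 h and 71372 after TCR for 6 h. The log2 change was 10.38 ± 0.89 for TCR 6 h (SE, 2 arrays against 3 samples, adjusted p = 0.000517 in limma) and 6.61 ± 0.89 for TCR 1 h (adjusted p = 0.0214). Il4, Il9 and Il15 did not pass, at 1.22, 0.00 and 0.07 for TCR 6 h, and Il9 was well above background on 2 of 8 arrays. Il7 and Il21 were not tested, being well above background on 0 and 1 arrays.

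Of the partner chains Crlf2, which pairs with Il7r in the receptor for thymic stromal lymphopoietin, rose to 61778 and 61124 with TCR for 6 h, against 31050 to 38412 without TCR (0.86 ± 0.24, adjusted p = 0.0266 in limma). Il13ra1, well above background on 3 of 8 arrays, did not pass.

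Of 14 measured signalling genes 3 rose and 3 fell at 6 h, against 22.3% and 22.8% of all genes. Cish, a STAT5 target that restrains cytokine signalling, rose 10.6-fold, with 17757 and 13331 on the TCR 6 h arrays against 588.4 to 3362 without TCR, and it had risen 7.87-fold at 1 h. The phosphatase genes Ptpn6 and Ptpn2 rose 3.60-fold and 2.58-fold at 6 h, and Ptpn6 had risen 3.85-fold at 1 h. Socs3, which inhibits receptor signalling, fell 18.4-fold at 6 h, to 1088 and 1160 against 11574 to 47637 without TCR. Jak1, a kinase of these receptors, fell 4.48-fold, and Stat5b fell 2.80-fold. Adjusted p-values of these 6 genes lay between 0.000712 and 0.0137 at 6 h in limma, and Jak3, the kinase bound by the common gamma chain, stood at -0.58 ± 0.52 without passing.

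Of 11 target and survival genes 3 rose and 1 fell at 6 h, against 22.3% and 22.8% of all genes. The survival gene Bcl2l1 rose 28.5-fold, the growth regulator Myc 26.6-fold and the cytokine gene Lta 21.4-fold, while Prdm1, which encodes the repressor BLIMP-1, fell 2.68-fold (adjusted p between 0.000652 and 0.0123 in limma). Myc was also called at 1 h, 27.4-fold higher. Bcl2, a survival gene downstream of interleukin 7, stood at 0.73 ± 0.50 and did not pass.

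Of 12 regulators linked to Il7r transcription 7 fell and 3 rose at 6 h, against 22.8% and 22.3% of all genes. Klf2, a quiescence factor, fell 32.2-fold, to 2399 and 3333 with TCR for 6 h against 83216 to 105982 without TCR. Tcf7 fell 14.2-fold, Ets1 10.0-fold, Foxo1, an activator of Il7r, 4.14-fold, and Runx3 2.23-fold. Foxo3, a further FOXO family factor, was not well above background on either TCR 6 h array and was at least 5.81-fold lower there (adjusted p = 0.00303 in limma, measured means 14.3 with TCR for 6 h and 118.5 without TCR). Gfi1, a repressor of Il7r in CD8+ T cells, rose 10.4-fold at 6 h and 9.98-fold at 1 h, Gabpb1, a subunit of the activator GABP, rose 6.06-fold and 4.20-fold, and Foxp1, which opposes Foxo1, rose 2.12-fold at 6 h. The median over the 12 genes was -1.10, also with Foxo3 at its bound, and none of them passed for IFNb.

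The promoter windows of 6 of the 7 receptor genes were found in the RefSeq table, 7 windows in all. Searched on both strands, the NF-kB consensus was in those of Il2ra and Il4ra, and in 4.51% of 32851 windows. The STAT motif TTCNNNGAA was in the Il7r window and in 8.30% of all, and AP-1 TGANTCA in the second Il15ra window and in 7.81%. The FOXO motif GTAAACA was in the Il21r window and in 3.65% of all, and the NFAT core GGAAA in 5 of 7 windows and in 61.3%. The interferon-stimulated response element was in 0 of the 7 windows and in 3.44% of all, and the EGR motif GCGNGGGCG in 0 and in 5.55%. These are letter matches in 300 bases and show no binding.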

How the data were processed

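The scanner files of 8 arrays hold processed signal, a linear intensity, which the authors made with Agilent Feature Extraction 10.7.3.1, per the file headers (9.5.3.1 per the submitters' processing notes), with spatial and multiplicative detrending switched on and local background correction off. The deposited series values are intensity too. Each column equals the processed signal of 1 array times a factor between 1.21 and 1.86, with values under 15 set to 15 and column medians of 89.6, 102.4, 92.6, 95.8, 92.2, 100.6, 80.7 and 73.8. This match settled scale, centring and direction, and it gave 2 columns another sample's scanner file, the TCR 1 h pair. Probe positions are mm9, per the file headers.

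Processed signal was scaled to its 75th percentile and taken to log2. Outlier spots were left out, spots of a probe averaged, and 28573 probes kept that were well above background on at least 2 arrays. By accession 26690 probes were matched to RefSeq, 3169 of them under another symbol, and the others kept the file's name. Models were fitted over all genes in R 4.3.3 by limma 3.58.1, with IFNb, TCR 1 h and TCR 6 h as terms (7 samples, 3 residual degrees of freedom) and with interactions added (1 residual degree of freedom), then moderated and adjusted by Benjamini-Hochberg at 0.05. The code of the fit was run on simulated data with independent noise and changes at TCR 6 h only. Those data held no interaction and no effect of IFNb time, so they cannot give the error rates of the fit here. Figures came from matplotlib 3.10.9 in Python 3.11.15, with pandas 2.3.3 and numpy 2.4.6, and tables in R were read by data.table at version 1.17.8.

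The receptor genes and the 5 gene and 7 marker lists were chosen with earlier results of these data known. Named were all 7 receptor genes, every cytokine of the family, up to 6 genes per direction of each other list at TCR 6 h and up to 3 at TCR 1 h among those that passed, and the 5 genes most like Il7r and Il2ra. Alternatives covered the untreated arrays, slides, scaling, background correction, probe filter and choice, array names, the series values and leaving out each array. The normexp fit left out outlier spots, a few of which had a background far above the spot.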

Additional observations from a re-analysis of the deposited data

Results flagged for a closer look

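3 receptor genes differed between the TCR times by a test of the difference itself, TCR 6 h against TCR 1 h over 2 arrays each in limma. The log2 difference was 3.99 ± 0.52 for Il15ra (SE, adjusted p = 0.00351), 3.94 ± 0.44 for Il2ra (adjusted p = 0.00255) and -6.26 ± 0.28 for Il7r (adjusted p = 0.00132). The TCR times lay on different slides, and with slide as a block the differences were 3.53 for Il15ra, 3.53 for Il2ra and -6.40 for Il7r. In the pairs with IFNb they were 3.11, 3.32 and -6.33, and in the pairs without IFNb 4.86, 4.56 and -6.19.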

How the results depend on the processing

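Over all alternatives run, Il7r, Il2ra and Il15ra kept their calls and directions for TCR 6 h (20 of 20 each) and for TCR 6 h against TCR 1 h (18 of 18 each), with log2 changes of -7.49 to -7.04, 5.64 to 6.89 and 3.88 to 5.54 for TCR 6 h. Il21r held its call in 15 of 20 at TCR 6 h and in 12 of 19 at TCR 1 h, where Il2ra held its call in 13 of 19. The setting without the TCR 1 h pair was chosen after seeing the data. With 1 array per treated condition the number of arrays limits all estimates, and where a single array was left in an arm it was assumed to vary like the others. No paired analysis was possible because only the untreated group has replicate numbers to pair by. Slide served as a block instead.

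The number of receptor genes called for TCR 1 h was 1 with slide as a block, 4 with normexp, and 0 with no filter on dim probes and with the scanner files' names for the TCR 1 h pair. Leaving out each array gave 0 to 3 for TCR 1 h and 3 to 5 for TCR 6 h against TCR 1 h. Genes called for TCR 6 h were 4748 to 8911 on leaving out each array, the lowest without the array for IFNb 1 h with TCR 6 h. For TCR 1 h they were 2556 with the untreated arrays as 2 samples, 456 on slide 1 alone, 2353 with normexp, 533 with no filter, 1671 with probes well above background on all arrays, 370 with the scanner files' names and 38 to 834 on leaving out each array. For TCR 6 h against TCR 1 h they were 2826 with slide as a block and 2828 to 6352 on leaving out each array. For IFNb they were 87 with the untreated arrays as 2 samples, 51 with slide as a block, 290 on slide 1 alone, 0 on slide 2 alone, 47 with median scaling, 0 with quantile normalization, 210 with normexp, 8 with no filter, 78 with probes well above background on all arrays, 44 with the series values, 0 with the scanner files' names, 0 without the TCR 1 h pair and 0 to 281 on leaving out each array. For the interaction normexp gave 1 gene at 1 h and 20 at 6 h, and the scanner files' names 66 at 1 h. The cause was not tested.

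Directions turned only for values that missed the threshold. For TCR 6 h Il2rb stood at -0.16 with the untreated arrays as 2 samples, -0.26 both on slide 2 alone and with slide as a block, -0.44 with quantile normalization and -0.00433 without the TCR 1 h pair. Il2rg stood at -0.0161 both on slide 2 alone and with slide as a block, -0.75 with quantile normalization and -0.00472 with normexp. Il4ra stood at 0.27 with median scaling and 0.0744 with the scanner files' names. For IFNb Il2rg stood at -0.22 on slide 1 alone, Il7r at -0.0146 with the scanner files' names and -0.0815 with the mean of all kept probes, and Il21r at 0.0849 with the scanner files' names. Leaving out each array gave -0.76 to 0.69 for Il2rb, -0.0718 to 0.33 for Il2rg and -1.01 to 0.71 for Il4ra at TCR 6 h. It gave -0.0239 to 1.04 for Il2rg at TCR 1 h, -0.94 to 0.12 for Il2rg and -1.95 to 0.0351 for Il21r between the TCR times, and -0.0159 to 0.49 for Il2rg with IFNb. With median scaling 62.7% of calls for TCR 6 h and 65.3% for TCR 6 h against TCR 1 h were higher, against 49.4% and 51.2%.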
